A study of Mus musculus with 18 samples.

Results

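The genes described here mark the hepatocyte lineage of the fetal liver, and Afp, Alb, Ahsg, Apoa1, Apoa2, Apob, Ttr, Trf, Fgb and Fgg were followed in RNA-seq libraries of 9 whole mouse embryos at E11.5. They are 10 of the 34244 named genes in the table and were taken by symbol, and all 10 were found and tested. They were selected on the values of the second Dnmt3b +/+ embryo, which held almost none of their transcripts, so its levels are given as a description with no test. Dnmt3b is a de novo DNA methyltransferase, and the embryos, on an FVB background, were 3 Dnmt3b +/+, 3 Dnmt3b -/- (a null made from a floxed allele) and 3 Dnmt3b CI/CI. In the CI allele, substitutions in the catalytic site, introduced by CRISPR/Cas9, leave an inactive protein in place. All were live embryos of heterozygous parents and were labelled independent embryos, but litters were not given. Per the study's methods the parents were Dnmt3b +/- or Dnmt3b +/CI, so a Dnmt3b -/- and a Dnmt3b CI/CI embryo cannot be littermates. The labels call the samples whole embryos, so that a library mixes organs and blood. Whether every organ entered each library in full is not given in the sources used here.

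The liver bud arises from foregut endoderm, and its hepatoblasts begin to secrete plasma proteins while the organ is still forming. Blood progenitors then settle there, and the fetal liver becomes the main site of definitive red cell formation. Afp and Alb encode the major fetal and adult carrier proteins of plasma, Ahsg the carrier fetuin-A, Apoa1 and Apoa2 the main proteins of high-density lipoprotein, Apob the structural protein of low-density lipoprotein, Ttr and Trf the carriers of thyroid hormone and iron, and Fgb and Fgg the beta and gamma chains of fibrinogen. Visceral endoderm of the yolk sac makes many of the same proteins, and Ttr and Trf are also strongly expressed by the choroid plexus and other cells of the brain. Transcription of hepatocyte genes depends on factors such as HNF1, HNF4, FOXA and C/EBP proteins.

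Afp and Alb are neighbours in the genome, and Fgb and Fgg lie in the fibrinogen cluster with Fga, the gene of the alpha chain, between them. In GRCm38, the plus-strand genes Alb (chr5:90460897-90476602) and Afp (chr5:90490737-90508907) lie 14134 bases apart. Fgg (chr3:83007724-83015049, plus strand) and Fgb (chr3:83040141-83049863, minus strand) are separated by 25091 bases. Ahsg lies at chr16:22891277-22899449, Apoa1 at chr9:46228580-46230466, Apoa2 at chr1:171225054-171226379, Apob at chr12:7977648-8016835 and Trf at chr9:103204001-103230444. RefSeq promoters of GRCm38.p6 were matched for 8 members, with 9 promoters in all, since Apoa2 has a pair, and those of Trf and Ttr were not analysed here. The letters GTTAAT, bound by HNF1 proteins, were sought on both strands of the 250 bases before each start. They were found for Fgb, Alb and Afp, 3 of the 9 promoters, and in 6.436% of all 32817 promoters. The 120 bases before the start of these 3 genes are shown 5′ to 3′ on the strand of the gene, with those letters in capitals (ATTAAC where they read on the opposite strand).
Alb, chr5:90460750-90460869, plus strand: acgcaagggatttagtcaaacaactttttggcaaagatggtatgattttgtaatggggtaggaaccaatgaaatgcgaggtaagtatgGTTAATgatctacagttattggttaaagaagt
Afp, chr5:90490594-90490713, plus strand: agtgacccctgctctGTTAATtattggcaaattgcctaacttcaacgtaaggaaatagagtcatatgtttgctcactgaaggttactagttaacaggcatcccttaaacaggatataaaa
Fgb, chr3:83049864-83049983, minus strand: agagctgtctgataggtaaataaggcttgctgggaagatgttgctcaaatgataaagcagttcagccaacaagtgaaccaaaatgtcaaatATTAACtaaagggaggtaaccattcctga
Letters of the C/EBP type, TTGCNNAA, were in 6 of the 9 promoters (of Apoa2, Fgb, Alb, Afp, Apob and Ahsg) and in 9.571% of all. The FOXA letters TGTTTAC were in 1, that of Apoa2, against 3.163%, and the HNF4 letters CAAAGTCCA in 0 against 0.3839%. CG dinucleotides, the sites of DNA methylation, numbered 1 to 7 per 250 bases in the members, against a median of 6 (quartiles 2 and 16) over all promoters. These matches describe letters only, and binding and methylation at these promoters were not analysed here.

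Values are FPKM, reads scaled to the length of the gene and the size of the library, as the authors deposited them. The totals behind them were 38451729 to 49808777 reads per library, and that of the second Dnmt3b +/+ embryo was the highest. The level of Dnmt3b itself was 2.45, 3.12 and 3.33 FPKM under the label Dnmt3b -/-, against 2.25, 1.62 and 2.04 FPKM in Dnmt3b +/+ and 2.06, 1.98 and 2.32 FPKM in Dnmt3b CI/CI. It was therefore not lower under the label Dnmt3b -/-, although a value over the whole gene cannot show whether a part is missing. The germline gene Taf7l, picked after its values were seen, was at 7.64, 4.87 and 6.49 FPKM under that label, 3.98, 3.58 and 3.88 FPKM in Dnmt3b CI/CI and 0.0227 to 0.0299 FPKM in Dnmt3b +/+, so that the groups stood apart in it. Embryos with the label Dnmt3b -/- are named by it throughout. The paper genotyped yolk sac DNA, and it shows an immunoblot for Dnmt3b and reports regions that lost methylation in Dnmt3b -/- embryos. Those measures were not analysed here. Comparisons were made on log2(FPKM + 0.1) with limma over 19397 genes, in 8 embryos without the second Dnmt3b +/+ embryo and again with all 9. A gene was called when it differed at least 2-fold and its adjusted p (Benjamini-Hochberg) was under 0.05. In these libraries, fewer hepatocytes, less RNA per hepatocyte and less liver tissue taken into the library cannot be told apart. Differences of litter, of mouse line or of exact stage cannot be told apart from those of genotype either. Transcripts of another organ also varied within a genotype, with the heart gene Nppa at 0.104 to 38.7 FPKM in the 3 Dnmt3b +/+ embryos, and the part of unequal tissue in the results was not tested.

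**Figure D1:**
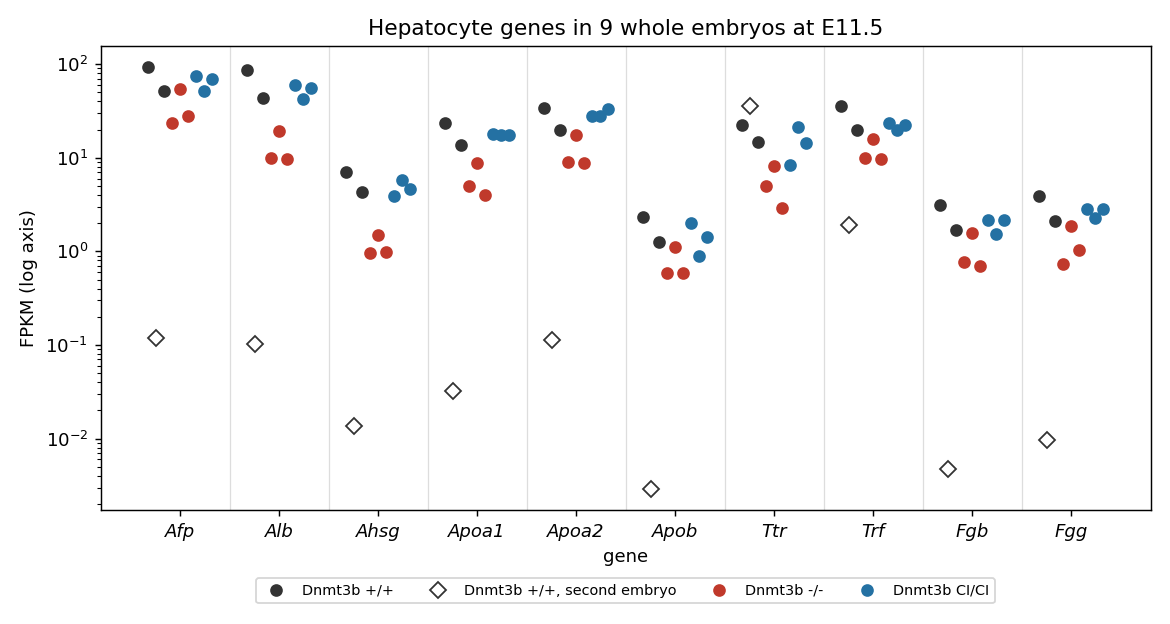
FPKM of the 10 hepatocyte genes on a log axis, 1 point per embryo (grey, Dnmt3b +/+; red, labelled Dnmt3b -/-; blue, Dnmt3b CI/CI; open diamond, the second Dnmt3b +/+ embryo). The open diamond lies far below all other points for 9 genes, at 0.119 FPKM for Afp, and above them for Ttr, at 35.5 FPKM.

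The second Dnmt3b +/+ embryo had the lowest value of 9 for every member except Ttr. Afp, the fetal plasma carrier, stood at 93.3, 0.119 and 52.0 FPKM in the first, the second and the third Dnmt3b +/+ embryo, and between 23.8 and 75.5 FPKM in the other 6 embryos. The second embryo held 20 reads of Afp, 0.224% of the median of the other 8 embryos, with a 95% counting interval of 0.137 to 0.346%. Alb stood at 85.7, 0.103 and 43.7 FPKM in the same 3 embryos, and the second held 12 reads, 0.240% of that median (0.124 to 0.419%). The median of the other 8 embryos was thus 446-fold higher for Afp and 417-fold higher for Alb, although this library was the deepest.

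The remaining plasma proteins were close to the limit of detection in that embryo. It held 1 read of Ahsg (0.330% of the median of the other 8, interval 0.00835 to 1.84%), 2 of Apoa1 (0.209%, 0.0253 to 0.756%) and 3 of Apoa2 (0.473%, 0.0976 to 1.38%). Apob was represented by 2 reads (0.245%, 0.0297 to 0.885%) and Fgg by 1 read (0.437%, 0.0111 to 2.43%). No read of Fgb was present, which places it at least 104-fold below the median of the other 8 embryos when 3 reads are taken as the floor. These intervals cover counting error only. Apart from Trf and Ttr, the 7 members with a read were thus at 0.209 to 0.473% of the median, with overlapping intervals.

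Trf and Ttr, which are also made outside the liver, behaved differently. Trf, the iron carrier, stood at 35.7, 1.92 and 19.8 FPKM in the 3 Dnmt3b +/+ embryos, and the 318 reads of the second embryo were 9.76% of the median of the other 8 (8.72 to 10.9%). Ttr, the thyroid hormone carrier, stood at 22.5, 35.5 and 14.7 FPKM, and the second embryo, with 2157 reads, was at 314% of that median (301 to 327%) and the highest of all 9. Summed over the 10 members, that embryo reached 20.8% of the median of the other 8 embryos; without Ttr, a sum chosen after seeing the data, it reached 1.41%. Of the choroid plexus genes, 5 passed the filter, and the second Dnmt3b +/+ embryo was the highest of 9 in 4 of them, with the share over all genes not given here. Kcne2, a potassium channel subunit of this epithelium, was at 1.02 FPKM there and at 0.0837 to 0.497 FPKM in the others. Clic6 was at 1.91 against 0.794 to 1.61 FPKM, Folr1 at 0.376 against 0.116 to 0.266 FPKM and Kcnj13 at 0.364 against 0.0702 to 0.282 FPKM. Reads were few for Kcne2 (6 to 90 in the 9 embryos), Folr1 (12 to 43) and Kcnj13 (4 to 23). Otx2 was at 4.44 FPKM in the second Dnmt3b +/+ embryo, but at 5.02 and 5.83 FPKM in the first and the third embryo labelled Dnmt3b -/-. The part of choroid plexus cells in the level of Ttr was not tested.

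Most genes were near their usual level in that embryo. Among the 12781 tested genes with a median of at least 1 FPKM in the other 8 embryos, 55 (0.430%) were under 10% of that median in the second Dnmt3b +/+ embryo, 0 were over 10 times it, and the median gene stood at 98.9%. The 55 included 9 members, 13 other secreted proteins of hepatocytes, the nuclear receptor gene Hnf4a and the red cell genes Klf1 and Gata1, and 28 were in none of the lists. Of the 55, 47 were also under 10% of the mean of the first and the third Dnmt3b +/+ embryo. The other 8, all in no list and with Taf7l among them, were not, so that 20 genes outside the lists were low against the embryos of the same genotype too. Among these 20 were F12, C3, Hemgn and Rhag. The lists are not complete, so a gene outside them may still be one of liver or blood. Hnf4a, which encodes a main regulator of hepatocyte genes, stood at 1.95, 0.00416 and 1.08 FPKM in the 3 Dnmt3b +/+ embryos, the second with 1 read. Klf1 and Gata1, which encode transcription factors of red cells, were at 4.6 and 5.17% of the median of the other 8. Adult beta globin Hbb-bs was at 100 FPKM there, against 711 and 351 FPKM in the other Dnmt3b +/+ embryos, while the embryonic globins Hba-x and Hbb-bh1 were at 170 and 172% of the median of the other 8.

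Not all genes that hepatocytes express were low in that embryo. Among 26 tested genes of a list of 28 other hepatocyte secreted proteins, the second Dnmt3b +/+ embryo was lowest in 23 and under 10% of the median of the other 8 in 22. Vtn (vitronectin) stood at 7.92 FPKM there against 4.84 to 11.4 FPKM elsewhere, and Serpinc1 (antithrombin), Mttp (a lipid transfer protein) and Apoc1 were at 80.9, 64.1 and 22.7% of the median. Dlk1, a surface protein of hepatoblasts and of many other embryonic cells, was at 60.0 FPKM there, 96.1% of the median. Of the liver sinusoid and stellate cell genes, 0 of 8 were under 10%, with Stab2, a scavenger receptor of sinusoid endothelium, at 14.2% and Lyve1 at 73.6%. Macrophage genes were near the median of the other 8, with C1qa at 100% and Csf1r at 102%.

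**Figure D2:**
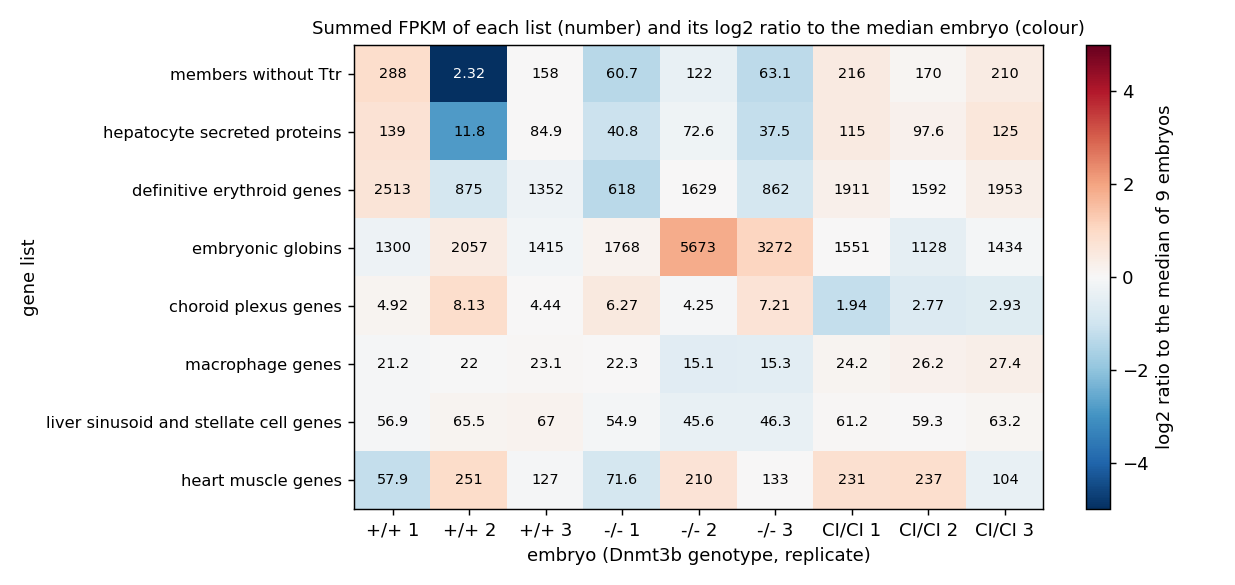
Summed FPKM of each gene list (number) in each embryo, with colour for its log2 ratio to the median of the 9 embryos. The second Dnmt3b +/+ embryo is at 2.32 FPKM for the members without Ttr, where the others are at 60.7 to 288 FPKM, and it is not low for macrophage, sinusoid or heart genes.

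In the other 8 embryos the hepatocyte genes ranged from 0.583 FPKM (Apob) to 93.3 FPKM (Afp), and the embryos labelled Dnmt3b -/- had the lower levels. Compared with Dnmt3b CI/CI, the means of all 10 members were lower there, and 6 of 10 were called, where 4.91% of all genes tested were called lower. In 7 of the 10 members every embryo labelled Dnmt3b -/- was below every Dnmt3b CI/CI embryo, as in 29.5% of all genes. The median log2 difference of the members was -1.27, and that of all genes -0.08. The differences in this comparison use no Dnmt3b +/+ embryo, but the p-values rest on a spread estimated with them. With only these 2 genotypes in the model, 5 of 10 members were called, where 4.71% of all genes were called lower. The comparison asks how loss of the protein differs from loss of its catalytic activity, between embryos of different litters. The members were chosen with earlier results of these data known, and the comparisons share the embryos labelled Dnmt3b -/-.

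Albumin and fetuin-A differed most among the members. Alb was at 9.92, 19.2 and 9.67 FPKM under the label Dnmt3b -/- and at 59.9, 42.1 and 56.0 FPKM in Dnmt3b CI/CI. The groups did not overlap, and the log2 difference was -2.08 ± 0.33 (SE, limma adjusted p = 0.0042), a 4.23-fold lower level. Ahsg was at 0.953, 1.5 and 0.987 FPKM against 3.90, 5.83 and 4.68 FPKM, again without overlap, and fell by 1.98 ± 0.24 on the log2 scale (limma adjusted p = 0.0018).

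The lipoprotein genes were all at lower means. Apoa1 was at 4.97, 8.79 and 3.99 FPKM under the label Dnmt3b -/- and at 18.0, 17.7 and 17.4 FPKM in Dnmt3b CI/CI, a log2 difference of -1.64 ± 0.29 (limma adjusted p = 0.0064). Apoa2 was at 9.06, 17.5 and 8.86 FPKM against 27.9, 27.7 and 33.3 FPKM, a log2 difference of -1.39 ± 0.29 (limma adjusted p = 0.011). Both high-density lipoprotein genes were called, and neither overlapped between the groups. Apob was at 0.583, 1.11 and 0.593 FPKM against 2.03, 0.902 and 1.43 FPKM. There the second Dnmt3b CI/CI embryo lay below the second embryo labelled Dnmt3b -/-, and the difference of -0.84 ± 0.35 was not called (limma adjusted p = 0.11). Whether Apob differed less than Apoa1 and Apoa2 was not tested.

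For the other carriers, Ttr was at 5.0, 8.12 and 2.89 FPKM under the label Dnmt3b -/- and at 8.42, 21.6 and 14.2 FPKM in Dnmt3b CI/CI. Its log2 difference of -1.47 ± 0.43 was called (limma adjusted p = 0.037), although the highest and lowest values of the groups lay close together. The call was lost in 7 of 17 alternatives, with an adjusted p in limma of 0.052 when only these 2 genotypes were fitted and 0.091 without the filter. Trf was at 9.91, 15.9 and 9.65 FPKM against 23.5, 19.6 and 22.6 FPKM without overlap. Its difference of -0.92 ± 0.25 had an adjusted p of 0.029 in limma but was under 2-fold, so that it was not called. Afp, with 23.8, 54.3 and 27.6 FPKM against 75.5, 52.1 and 69.7 FPKM, overlapped in the second embryo labelled Dnmt3b -/- and differed by -0.98 ± 0.34 (limma adjusted p = 0.061).

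Of the fibrinogen chains, Fgg was at 0.731, 1.87 and 1.04 FPKM under the label Dnmt3b -/- and at 2.82, 2.28 and 2.82 FPKM in Dnmt3b CI/CI, a called difference of -1.15 ± 0.33 (limma adjusted p = 0.034). This call was lost in 10 of 17 alternatives, with an adjusted p in limma of 0.082 without the filter and 0.064 with quantile normalization. Fgb was at 0.763, 1.57 and 0.699 FPKM against 2.17, 1.55 and 2.16 FPKM, with the second embryos of both groups close together, and its difference of -0.96 ± 0.33 was not called (limma adjusted p = 0.057). The estimates of both chains were alike in size, but they fell on opposite sides of the threshold, and the difference between them was not tested.

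One embryo weighed on these counts. The second embryo labelled Dnmt3b -/- was the highest of its group for all 10 members, and without it 9 of 10 members were called, against 4 to 5 when any other embryo was left out. With all 9 embryos in the model the differences of the members were the same, but the spread of the second Dnmt3b +/+ embryo entered the shared error, and only Ttr was called (limma adjusted p = 0.047), where 4.32% of all genes were called lower.

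Against the first and the third Dnmt3b +/+ embryo, the embryos labelled Dnmt3b -/- were lower for all 10 members, and 6 of 10 were called, where 3.05% of all genes were called lower. In 9 of 10 members the groups did not overlap, as in 30.0% of all genes. Alb, at 85.7 and 43.7 FPKM in these Dnmt3b +/+ embryos, fell by 2.31 ± 0.37 on the log2 scale (limma adjusted p = 0.0081). Ahsg, at 7.08 and 4.36 FPKM, fell by 2.21 ± 0.27 (limma adjusted p = 0.0033). The other called members were Ttr (-1.87), Apoa1 (-1.66), Trf (-1.20) and Apoa2 (-1.20). Fgg (-1.28), Fgb (-1.21), Apob (-1.12) and Afp (-1.08) were not called, with limma adjusted p-values of 0.050 to 0.087.

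The comparison with Dnmt3b +/+ turned on which Dnmt3b +/+ embryos were used. The first of them had the highest value of the 8 embryos for all 10 members, and without it only 1 member, Ahsg, was called. When the second was included, 8 of the 10 log2 differences turned positive, Afp to 1.69 and Alb to 0.44, and only Ttr was called (-2.19, limma adjusted p = 0.012), where 3.38% of all genes were called lower. The 2 choices therefore gave opposite directions for these 8 genes.

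**Figure D3:**
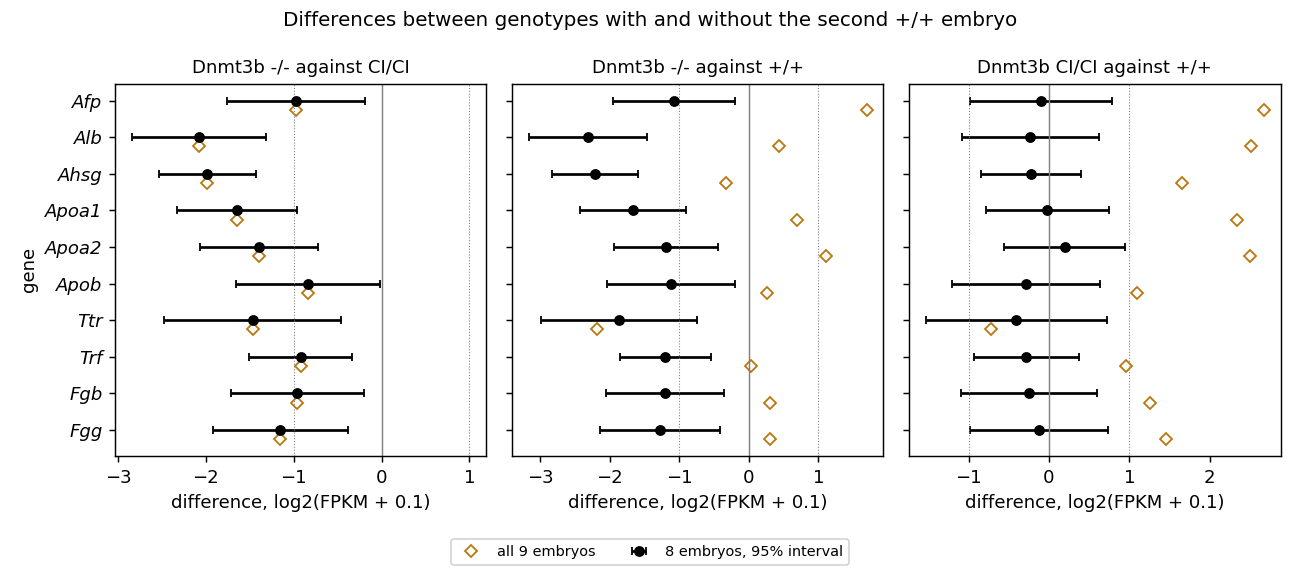
Log2 differences between genotypes for the 10 hepatocyte genes (black, 8 embryos, with 95% intervals; open diamonds, all 9 embryos; dotted lines, 2-fold). For Afp, the estimate for the embryos labelled Dnmt3b -/- against Dnmt3b +/+ moves from -1.08 to 1.69 when the second Dnmt3b +/+ embryo is included, and that against Dnmt3b CI/CI stays at -0.98.

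Dnmt3b CI/CI embryos overlapped with the 2 remaining Dnmt3b +/+ embryos for all 10 members. The share of all genes that overlap is not given here, and with so few embryos an overlap says little on likeness. No member was called by limma, where 0.124% of all genes (24) were called higher and 0 lower. At an unadjusted p under 0.05 there were 0 members, and 2.54% of all genes in the lower direction. The log2 differences ran from -0.41 for Ttr to 0.20 for Apoa2. Their 95% intervals were wide, -1.08 to 0.62 for Alb and -0.98 to 0.78 for Afp. Those of Alb, Ttr (-1.53 to 0.72), Apob (from -1.2) and Fgb (from -1.09) reached past a 2-fold lower level. With all 9 embryos the differences reached 2.67 for Afp and 2.51 for Alb, and 0 members were called (limma adjusted p = 0.949 for both), against 0.129% of all genes called higher.

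Within an embryo, the ratios of the members to Afp are given as a description. The mean log2 ratio to Afp in the embryos labelled Dnmt3b -/-, minus that in Dnmt3b CI/CI, was 0.06 for Apob, 0.06 for Trf, -0.06 for Fgb, -0.25 for Fgg, -0.42 for Apoa2 and -0.51 for Ttr, all with overlapping groups. It was -0.68 for Apoa1, -1.10 for Ahsg and -1.11 for Alb, where the groups did not overlap. The share of all genes whose ratio to Afp does not overlap was not counted. In level, every embryo labelled Dnmt3b -/- was below every Dnmt3b CI/CI embryo in 29.5% of all genes. The ratio of Alb to Afp, noticed in the values and given as a description, was 0.919, 0.863 and 0.841 in the Dnmt3b +/+ embryos, and 0.793, 0.808 and 0.804 in Dnmt3b CI/CI. In the embryos labelled Dnmt3b -/- it was 0.417, 0.353 and 0.350. The value of the second Dnmt3b +/+ embryo rests on 12 and 20 reads, and its exact 95% counting interval, 0.385 to 1.85, contains the values of all other embryos but those at 0.353 and 0.350. The embryos labelled Dnmt3b -/- lay below the other 5, including the second of them, whose Afp level of 54.3 FPKM exceeded that of the third Dnmt3b +/+ embryo. Ahsg to Afp was 0.0400, 0.0276 and 0.0357 under that label and 0.0516 to 0.112 in Dnmt3b CI/CI. In the first and the third Dnmt3b +/+ embryo it was 0.0759 and 0.0838. Apoa1 to Apoa2 was 0.450 to 0.549 in the embryos labelled Dnmt3b -/- and 0.524 to 0.644 in Dnmt3b CI/CI, which overlapped, and 0.701 and 0.692 in the first and the third Dnmt3b +/+ embryo, above both. Afp made up 36.2 to 41.9% of the summed FPKM of the 10 members under the label Dnmt3b -/- and 27.2 to 33.7% in Dnmt3b CI/CI.

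**Figure D4:**
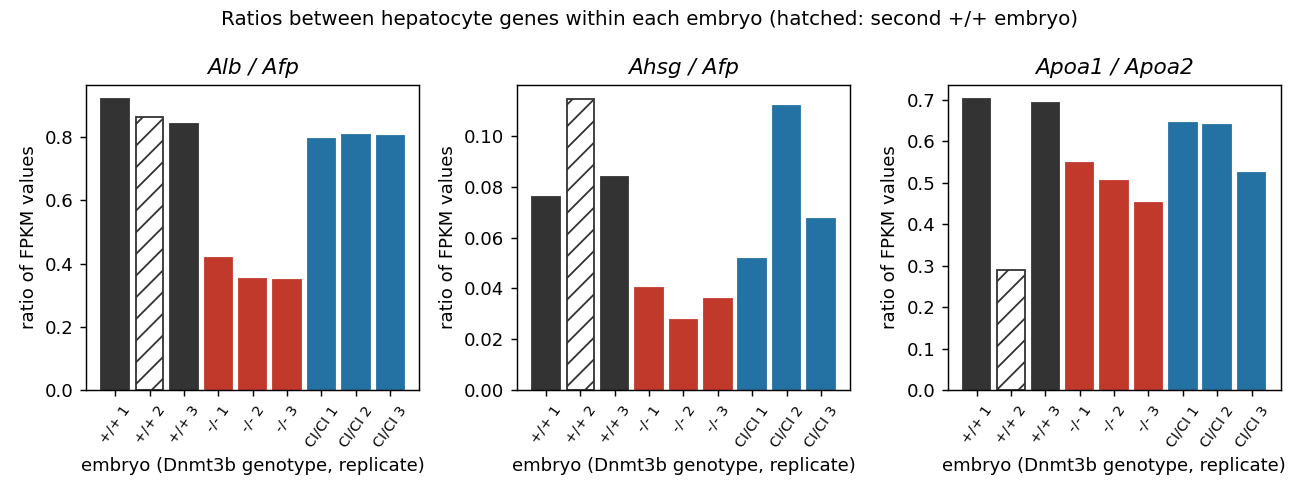
Ratios of FPKM values within each embryo (grey, Dnmt3b +/+, with the second embryo hatched; red, labelled Dnmt3b -/-; blue, Dnmt3b CI/CI). Alb to Afp is 0.350 to 0.417 in the embryos labelled Dnmt3b -/- and 0.793 to 0.919 in the other 6; in the second Dnmt3b +/+ embryo, the ratios of Ahsg and Apoa1 rest on 1 to 3 reads.

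Across the 8 embryos the members moved together. Pearson's r of log2(FPKM + 0.1) was 0.77 to 0.99 (median 0.95) over the 36 pairs without Ttr and 0.65 to 0.93 over the 9 pairs with Ttr. Over all 9 embryos the pairs with Ttr ran from -0.37 to -0.01. These values describe embryos that share a genotype in groups, and they carry no test. Over all 9 embryos, the 10 other genes most like the mean of the members, among 12796 with a mean of at least 1 FPKM, were Plg (0.9996), Rbp4 (0.995), Hnf4a (0.995), Fga, Serpina6, Itih2, 6030468B19Rik, Serpinf2, Cldn13 and C3 (0.990). In the 8 embryos they included Plg (0.998), Hbb-bs (0.995), Pik3cb (0.994), Serpina6, Gypc, Ank1, Fam46c, Itih3 and Cryzl1 (0.984), of which Hbb-bs, Gypc and Ank1 are genes of red cells.

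Other secreted proteins of hepatocytes were lower in the embryos labelled Dnmt3b -/- as well. Of the 26 tested in the list, 20 were called lower than in Dnmt3b CI/CI and 13 lower than in the first and the third Dnmt3b +/+ embryo, where 4.91 and 3.05% of all genes were called lower, with median log2 differences of -1.18 and -1.17. With all 9 embryos these counts were 1 and 0 (4.32 and 3.38% of all genes), without the second embryo labelled Dnmt3b -/- they were 21 and 20 (4.13 and 2.45%), and leaving out any other embryo of the genotypes compared gave 9 to 15 and 2 to 13. A pseudocount of 1 FPKM left 5 and 2 calls (1.04 and 0.619% of all genes), and testing without a filter left 13 and 6 (2.3 and 1.17%). Apoh (beta-2-glycoprotein I) was at 0.0944, 0.266 and 0.139 FPKM under the label Dnmt3b -/- and at 1.20, 0.928 and 1.53 FPKM in Dnmt3b CI/CI, a log2 difference of -2.33 ± 0.26 (limma adjusted p = 0.0014). Agt (angiotensinogen) differed by -1.93, Apoc2 (an activator of lipoprotein lipase) by -1.78, Kng1 (kininogen) by -1.60, Serpina6 (the corticosteroid carrier) by -1.51, Hpx (the haem carrier hemopexin) by -1.50, Gc (the vitamin D carrier) by -1.45 and Itih4 (an inter-alpha-trypsin inhibitor chain) by -1.41. Among the most abundant of the list, Rbp4 (the retinol carrier) differed by -1.25 and Ambp (the precursor of alpha-1-microglobulin) by -1.17, while Vtn, at -0.70, was not called. Serpina1a, Serpina1b and Serpina1d, called at -1.18, -1.10 and -1.13, are close copies between which reads may be shared.

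Liver regulators were counted in the same way. Of 15 tested liver transcription factors, 1 was called lower and 0 higher than in Dnmt3b CI/CI. This is near the 4.91% of all genes that were called lower. At any fold, 8 had an adjusted p under 0.05 in limma, and the share of all genes at that threshold is not given here. The called gene was Foxa3 (-1.20 ± 0.24, limma adjusted p = 0.0097), and with quantile normalization, a pseudocount of 1 FPKM, a filter of 1 FPKM or all 9 embryos 0 were called, against 3 with a pseudocount of 0.01 FPKM, 4 without the second and 2 without the first embryo labelled Dnmt3b -/-, and 2 without the second Dnmt3b CI/CI embryo. Onecut1 and Onecut2, hepatocyte nuclear factor 6 and its relative, were at 0.71 and 0.52 above Dnmt3b CI/CI on the log2 scale and were not called. Hnf4a, at 0.634, 1.08 and 0.450 FPKM under the label Dnmt3b -/- and 1.37, 1.36 and 1.5 FPKM in Dnmt3b CI/CI, differed by -0.95 and was not called. Among the most abundant of the list, Cebpa (-0.92), Prox1 (-0.66), Gata6 (-0.17) and Tbx3 (0.30) were not called, and they are expressed in other organs too. Of 9 tested hepatoblast surface and metabolic genes, 2 were called lower, among them Dlk1 (-1.28). Krt8, Krt18 and Cdh1, epithelial genes of many organs, differed by 0.15, 0.23 and 0.09 and were not called.

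Genes of other cells moved with these differences, and their part in them was not tested. Of 13 definitive erythroid genes, 2 were called lower under the label Dnmt3b -/- than in Dnmt3b CI/CI, the adult beta globins Hbb-bs (-1.76) and Hbb-bt (-1.60), which are near-identical copies, and the summed level of the list was 618 to 1629 FPKM against 1592 to 1953 FPKM. Beside the 4.91% of all genes called lower, this count became 4 without the second embryo labelled Dnmt3b -/- and 0 with all 9 embryos. Of 3 embryonic globins, 2 were called higher, Hbb-bh1 (3.37) and Hba-x (2.07), where 1.1% of all genes were called higher. Hbb-bh1 was at 113, 501 and 265 FPKM under the label Dnmt3b -/-, 25.1, 26.8 and 20.2 FPKM in Dnmt3b CI/CI and 26.9, 46.1 and 23.3 FPKM in Dnmt3b +/+. The summed level of 3 embryonic globins was 1768 to 5673 FPKM under the label Dnmt3b -/- and 1128 to 1551 FPKM in Dnmt3b CI/CI. Of the 8 sinusoid and stellate cell genes, 1 was called lower, Lyve1 (-1.15), with list sums of 45.6 to 54.9 against 59.3 to 63.2 FPKM. Lhx2, a transcription factor of stellate cells and other tissues, lay the other way, at 11.1, 12.5 and 17.4 FPKM against 6.77, 2.81 and 10.2 FPKM, and its log2 difference of 1.20 ± 0.41 was not called (limma adjusted p = 0.059). The other abundant genes of the list, Ngfr (-0.995), Pdgfrb (-0.19) and Des (-0.90), were not called either. Without the first, the second and the third embryo labelled Dnmt3b -/- in turn, 3, 2 and 0 of these genes were called lower, and without the second or the third Dnmt3b CI/CI embryo 2 were. Lhx2 was called higher without the third Dnmt3b CI/CI embryo and in the model with a block for replicate number. Of 7 macrophage genes 0 were called in limma, although 6 had an unadjusted p under 0.05 and 5 an adjusted p under 0.05, all at under 2-fold. The shares of all genes at these thresholds are not given here. The sums of the macrophage genes were 15.1 to 22.3 against 24.2 to 27.4 FPKM.

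Lists for the other tissues that make these plasma proteins were measured in the same libraries. Visceral endoderm and yolk sac genes summed to 1.06 to 2.38 FPKM in the 9 embryos and choroid plexus genes to 1.94 to 8.13 FPKM. Of 4 tested genes of the former, only Lrp2, an endocytic receptor, was called against Dnmt3b CI/CI (1.07 higher). Against Dnmt3b +/+, Rhox5 was called higher (1.47) and Spink1 lower (-1.83), where 0.985% of all genes were called higher and 3.05% lower. Spink1 had 0 to 20 reads and Rhox5 7 to 47 reads in the 9 embryos, and neither was called without the first Dnmt3b +/+ embryo, without the second embryo labelled Dnmt3b -/-, with only these 2 genotypes, without a filter, or with a filter or a pseudocount of 1 FPKM. Rhox5 was also lost without the third Dnmt3b +/+ embryo, and Spink1 without the third embryo of either other genotype, with all 9 embryos and with the block. Cubn, the partner of Lrp2 in visceral endoderm, was at 0.0369 to 0.0710 FPKM in the 9 embryos and did not pass the filter. Of the 5 tested choroid plexus genes, 1 was called, Otx2 (2.26 higher), a gene of the early forebrain and midbrain as well. Of 7 tested genes of other foregut and gut endoderm, 2 were called higher, Barx1 (1.37) and Shh (1.21), and 0 lower, beside 1.1 and 4.91% of all genes. Of the urogenital ridge and heart lists, 0 of 5 and 0 of 7 genes were called in limma, with 4 and 1 at an unadjusted p under 0.05. The share of all genes at that unadjusted threshold is not given here. Without the first embryo labelled Dnmt3b -/-, 4 of the 5 urogenital genes were called lower, where 7.42% of all genes were, and without the second, 1 of the 7 heart genes was.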

How the data were processed

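Per the labels and the study's methods, total RNA of whole embryos was sequenced as paired-end reads, which the authors trimmed, aligned with STAR to mm10, filtered at a mapping quality of 50 and quantified in SeqMonk. The deposited table holds linear FPKM values per gene for 9 embryos. Genes with no reads are not at zero but at the equivalent of 0.9 reads. From this floor and the exon lengths of GENCODE M21 the library totals and the reads per gene were recovered, and 90.0 to 90.8% of values of 1 to 20 reads per library came out within 0.05 of a whole number. Strandedness is not given in the sources used here.

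In all, 19397 genes reached 0.1 FPKM in 3 or more of the 9 embryos. Their log2(FPKM + 0.1) values were compared in limma (version 3.58.1, R 4.3.3), with a trend, all genotypes in 1 model and no block. Fold changes on this scale understate those of low genes. The second Dnmt3b +/+ embryo was left out because its low values chose the members, and all 9 embryos were an alternative. The authors' DESeq test on counts was not repeated, as the table holds no counts. The members and the 12 gene lists were chosen with earlier results of these data known. From each list, the text names genes called in a comparison (up to 8, by size) and the 4 of highest mean FPKM, with others chosen after their values were seen (Hnf4a, Klf1, Gata1, Stab2, Cubn, Serpinc1, Mttp, Apoc1, Kcnj13, Onecut1, Onecut2, Taf7l, the Serpina1 genes). Sequences are from RefSeq (GRCm38.p6). Counting intervals are exact Poisson at 95%. Methylation data were not analysed here, and the values of some genes are not reported here. Python 3.11.15 was used with numpy 2.4.6 and pandas 2.3.3.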

Additional observations from a re-analysis of the deposited data

How the results depend on the processing

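For the embryos labelled Dnmt3b -/- against Dnmt3b CI/CI, members called numbered 6, with all 9 embryos 1, and 4 to 9 when 1 embryo was left out. Genes called numbered 1166 (952 lower, 214 higher), with a pseudocount of 1 FPKM 257, with a filter of 1 FPKM 652, and with quantile normalization 552 lower and 329 higher. Against Dnmt3b +/+, members called numbered 6, without a filter 3, with all 9 embryos 1, with only the 2 genotypes 2, and 1 to 9 when 1 embryo was left out (1 without the first Dnmt3b +/+ embryo and 3 without the third embryo labelled Dnmt3b -/-). Genes called there numbered 782, with a pseudocount of 1 FPKM 173, with a filter of 1 FPKM 408, with only the 2 genotypes 474, and 320 to 1279 when 1 embryo was left out; quantile normalization gave 363 lower and 255 higher. For Dnmt3b CI/CI against Dnmt3b +/+, 24 genes were called, 8 with a pseudocount of 1 FPKM and 12 to 25 when 1 embryo was left out. Where a fit leaves 1 Dnmt3b +/+ embryo, that embryo is assumed to vary like the other groups.

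With the replicate number as a block, members called were 5 and 4 in the first 2 comparisons, and genes called were 344 against Dnmt3b +/+ and 9 for Dnmt3b CI/CI against Dnmt3b +/+. The numbers do not pair the embryos, since same-numbered embryos labelled Dnmt3b -/- and Dnmt3b CI/CI correlated at -0.28, 0.01 and -0.02.

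With all 9 embryos, the log2 differences of the embryos labelled Dnmt3b -/- from Dnmt3b +/+ reversed to 1.69 (Afp), 0.44 (Alb), 0.70 (Apoa1), 1.11 (Apoa2), 0.26 (Apob), 0.038 (Trf), 0.30 (Fgb) and 0.31 (Fgg). Those of Dnmt3b CI/CI reversed to 2.67 (Afp), 2.51 (Alb), 1.65 (Ahsg), 2.34 (Apoa1), 1.09 (Apob), 0.96 (Trf), 1.26 (Fgb) and 1.46 (Fgg), as the added embryo is under 10% of the median of the others for these genes. When 1 embryo was left out, they ran from -0.52 to 0.32 (Afp), -0.72 to 0.25 (Alb), -0.57 to 0.12 (Ahsg), -0.41 to 0.37 (Apoa1), -0.19 to 0.58 (Apoa2), -0.71 to 0.14 (Apob), -0.71 to 0.14 (Trf), -0.67 to 0.18 (Fgb) and -0.56 to 0.31 (Fgg), with the upper ends, that of Apoa2 included, reached without the first Dnmt3b +/+ embryo. The sum of the members in the second Dnmt3b +/+ embryo was 20.8% of the median of the others, and 20.9 and 21.2% under the other scalings.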

Other observations

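Heart muscle genes varied between embryos without following genotype. Myl7, the atrial myosin light chain, was at 0.645 FPKM in the first Dnmt3b +/+ embryo and at 0.705 FPKM in the third Dnmt3b CI/CI embryo, and at 10.9 to 40.4 FPKM in the other 7. Nppa, the atrial natriuretic peptide, was at 0.104 and 0.210 FPKM in the same embryos and at 3.74 to 38.7 FPKM in the others. Myl2, the ventricular light chain, was at 0.0115, 0.0654, 0.0386 and 0.0934 FPKM in the first and the third Dnmt3b +/+ embryo, the first embryo labelled Dnmt3b -/- and the third Dnmt3b CI/CI embryo, and at 8.45 to 14.5 FPKM in the other 5. The second Dnmt3b +/+ embryo, which had the fewest hepatocyte transcripts, had the highest summed level of 7 heart genes, 251 FPKM, and the first, which had the most, had the lowest, 57.9 FPKM. The cause of these differences was not tested.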
